A study of Mus musculus with 30 samples.

Results

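The genes described here are Csf1r, its ligands Csf1 and Il34, and the transcription factors Spi1, Irf8, Maf and Runx1, measured in mouse hippocampus. They are 7 of the 21412 genes in the deposited table, and all 7 were found there by their Ensembl identifiers. The gene group was chosen by measured values of these same mice: Csf1r was among the genes called higher in the high dose group, and Maf had been named for its level in the high dose group given selenium. For this reason the high dose values of the group without selenium, and those of Maf in the high dose group with selenium, are given as a description with no test. Male BALB/c mice were used in a full factorial design of selenium and methylmercury (MeHg), with 5 mice and 1 library per mouse in each of 6 groups. Ctr mice had neither selenium treatment nor added mercury. LD mice were fed 0.28 mg and HD mice 5 mg MeHg per kg feed. The diets of Ctr, LD and HD mice were given for 11 weeks to mice that arrived at 2 to 3 weeks of age. The control feed held the cysteine carrier without MeHg. Se_Ctr, Se_LD and Se_HD mice had selenium with no, low dose or high dose mercury. The series title names selenium-methionine, and the selenium dose and the schedule of these 3 groups are not given in the sources used here.

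Csf1r encodes the receptor tyrosine kinase on which microglia, the resident macrophages of the brain, depend for survival. Its ligands are macrophage colony stimulating factor, encoded by Csf1 and made by several glial cell types, and interleukin 34, encoded by Il34 and made mainly by neurons in the forebrain. Spi1 encodes PU.1, the Ets family factor that directs macrophage development and binds the Csf1r gene, and Runx1 acts with it in early myeloid development. Irf8 encodes an interferon regulatory factor needed for normal microglia, and Maf encodes a large Maf family factor that works in tissue macrophages and is also made by some neurons.

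RefSeq promoter sequences (GRCm38.p6) were at hand for 3 of the 7 genes, Csf1, Irf8 and Runx1, in 5 windows. The 250 bases before each start were searched on both strands for letters that stand for binding sites of the factors described here or of the factors that act after cytokine receptors: GAGGAA for PU.1, TGTGGT for Runx factors, TGCTGA for large Maf factors and TTCNNNGAA for Stat factors. Irf8 and Runx1 are shown because they were the factors with the largest log2 fold changes in HD mice, and each window shown held a match. Capitals mark the matches, which do not overlap each other.
Irf8, chr8:120736108-120736357, plus strand: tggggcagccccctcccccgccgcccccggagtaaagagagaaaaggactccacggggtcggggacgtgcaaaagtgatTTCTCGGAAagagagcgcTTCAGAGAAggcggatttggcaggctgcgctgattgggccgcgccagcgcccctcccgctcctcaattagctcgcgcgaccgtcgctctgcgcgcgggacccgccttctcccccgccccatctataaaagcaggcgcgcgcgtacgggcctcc
Runx1, chr16:92697330-92697579, minus strand: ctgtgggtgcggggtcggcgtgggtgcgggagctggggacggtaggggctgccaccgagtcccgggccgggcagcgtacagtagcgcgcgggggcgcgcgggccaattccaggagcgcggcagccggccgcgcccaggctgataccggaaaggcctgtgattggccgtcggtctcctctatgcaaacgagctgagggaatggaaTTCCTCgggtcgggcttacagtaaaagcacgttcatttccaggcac
The Irf8 window held 2 matches to TTCNNNGAA, from -171 to -163 and from -153 to -145 before the start. Of 32851 windows of this length searched, 7.02% held a match to these letters. The Runx1 window held 1 match to GAGGAA, read on the other strand, from -46 to -41, and 23.3% of all windows held one. The other Irf8 window had 1 match to TGCTGA, found in 16.1% of all windows, while the Csf1 window and the other Runx1 window had none of the 4 motifs. TGTGGT was found in 14.0% of all windows and in none of these 5. The matches are a description of the sequence, and no binding was measured.

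On the NCBIM37 build, Csf1r lies on chromosome 18 at 61265226 to 61291803 on the plus strand (ENSMUSG00000024621). Csf1 lies on chromosome 3 at 107543966 to 107563387 on the minus strand (ENSMUSG00000014599). On chromosome 8 are Il34 at 113265729 to 113329824 on the minus strand (ENSMUSG00000031750), Maf at 118206842 to 118231694 on the minus strand (ENSMUSG00000055435) and Irf8 at 123260258 to 123280594 on the plus strand (ENSMUSG00000041515). Spi1, which the annotation lists under its older symbol Sfpi1, lies on chromosome 2 at 90922547 to 90955913 on the plus strand (ENSMUSG00000002111). Runx1 lies on chromosome 16 at 92601712 to 92826311 on the minus strand (ENSMUSG00000022952). Csf1r overlaps Hmgxb3 on the opposite strand, which had a mean of 250.02 normalized counts, and Il34 overlaps Gm15894, which had a mean of 2.34. Irf8 overlaps Gm20388 on the same strand. Il34 also overlaps Gm15895, Maf overlaps Gm15655 and Runx1 overlaps Gm16801, each on the opposite strand. None of these further genes had a row. The libraries keep strand, but the strand setting of the read counting was not given in the sources used here. Reads of these pairs may thus not be fully separated, and strand cannot separate those of Irf8 and Gm20388.

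Values are normalized counts, which are reads per gene divided by a size factor per library. The libraries had between 5768208 and 11510521 reads on genes, with a median of 9351471. A set of 8 markers of hippocampal neurons summed to between 7756 and 13507 normalized counts in every library, so defining markers of the labelled tissue were present. A set of 8 choroid plexus markers ranged from 1301 to 54140 over the libraries and varied widely within every group. With 1 library per mouse, the spread between mice and that from library preparation cannot be told apart. The limma p-values rest on this joint spread, pooled over all groups of a fit.

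The genes differed widely in level. Per kb of exon, the Ctr mean was 156 ± 12.3 (SD, n = 5) normalized counts for Il34 and 134 ± 7.58 for Csf1r, and the ranges of these overlapped. Maf, with 31.7 ± 5.09, and Csf1, with 25.9 ± 5.49, came next and also overlapped. Spi1 had 6.32 ± 1.61, Irf8 3.67 ± 0.569 and Runx1 1.19 ± 0.482 per kb, with no overlap between neighbours in this order. The 3 low genes rest on few reads, between 8 and 21 for Spi1, between 16 and 26 for Irf8 and between 3 and 11 for Runx1 in Ctr libraries, so small differences in them were not detectable at this depth.

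**Figure D1:**
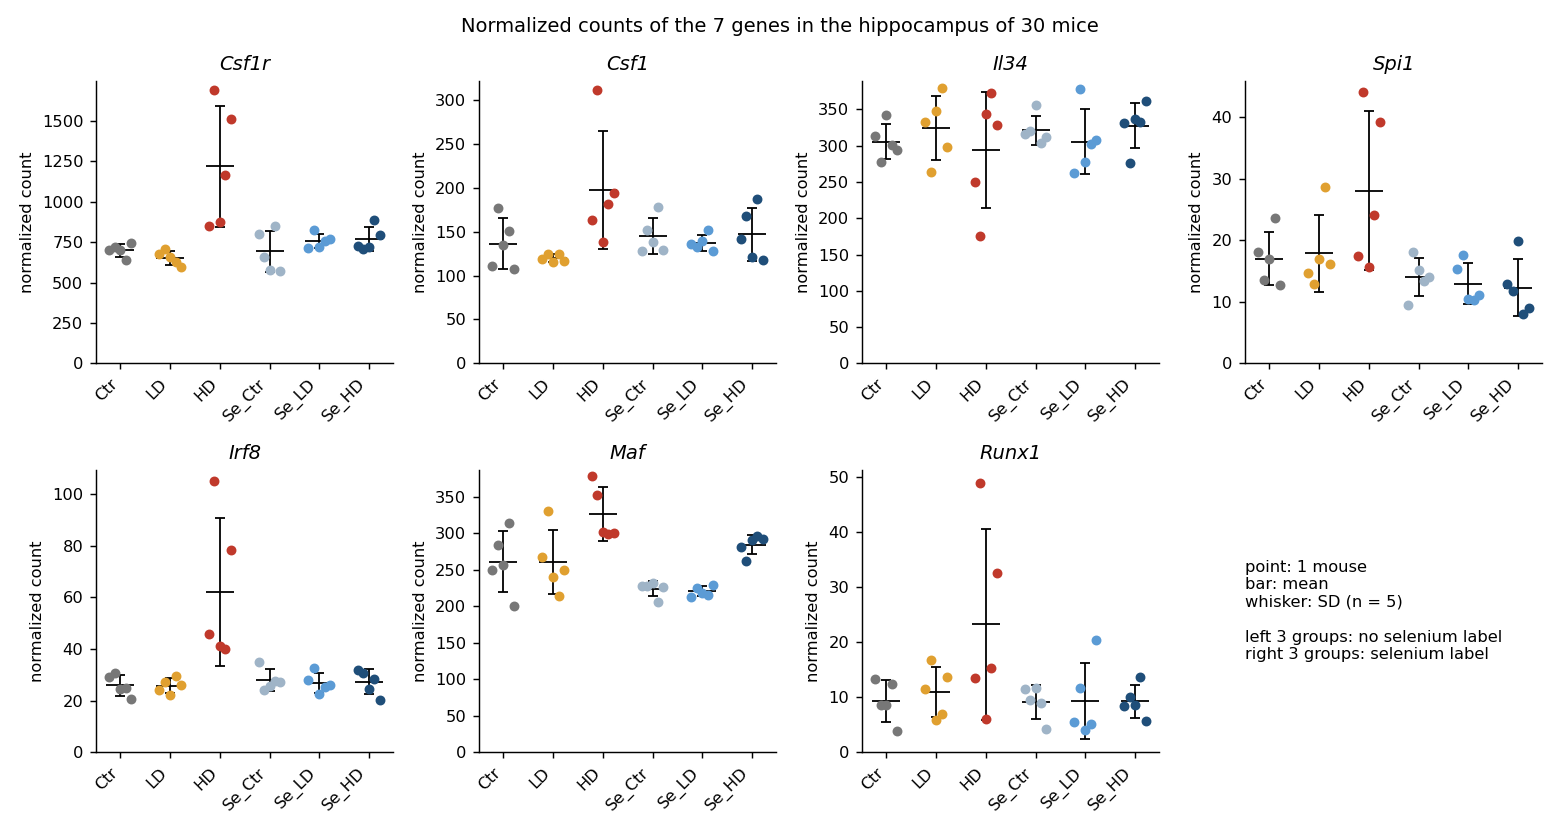
Normalized counts of the 7 genes (vertical axes, each from 0) in the 6 groups, with 1 point per mouse, the mean as a bar and the SD as a whisker. The 5 HD mice lie above all 5 Ctr mice for Csf1r and Irf8, and the 5 Se_HD mice lie above all 5 Se_Ctr mice for Maf.

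The first question was how the receptor and its ligands stood in the hippocampus of mice fed the high dose. Csf1r was measured at 848.7, 1688.6, 873.3, 1162.1 and 1511.4 normalized counts in HD mice 1 to 5 and at 700.3, 721.4, 698.2, 637.8 and 744.2 in the Ctr mice. Every HD mouse stood above every Ctr mouse, and HD mice 2 and 5 were the highest. The group means were 1217 ± 376 (SD, n = 5) and 700.4 ± 39.6. This was a log2 fold change of 0.74, with a standard error (SE) of 0.15 on the log2(normalized count + 1) scale used for all fold changes here. HD mice varied more than Ctr mice, with a coefficient of variation of 30.9% against 5.66%.

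Csf1, the first ligand, had 162.7, 311.0, 137.8, 181.6 and 194.1 normalized counts in HD mice and 111.1, 177.0, 135.1, 151.0 and 107.4 in Ctr mice. HD mouse 2 was far above the rest and the groups overlapped, and 3 of the HD mice exceeded the highest Ctr mouse. The log2 fold change was 0.50 (SE 0.18). Il34, the other ligand, had 250.2, 175.5, 342.9, 372.9 and 328.3 normalized counts in HD mice and 312.7, 277.3, 342.0, 300.9 and 294.1 in Ctr mice. HD mouse 2, the highest for Csf1r and Csf1, was the lowest of all 30 mice for Il34. The log2 fold change of Il34 was -0.10 (SE 0.16), with 2 HD mice above and 2 below the Ctr range.

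Of the transcription factors, Irf8 was the one whose groups did not overlap. It had 45.7, 105.3, 41.0, 40.2 and 78.3 normalized counts in HD mice against 29.0, 30.6, 24.6, 24.8 and 20.46 in Ctr mice. Again mice 2 and 5 were highest, and the log2 fold change was 1.13 (SE 0.25). Spi1 had 17.5, 44.1, 15.7, 24.1 and 39.2 normalized counts in HD mice and 18.1, 13.6, 17.0, 23.7 and 12.8 in Ctr mice, with HD mice 1 and 3 inside the Ctr range and a log2 fold change of 0.61 (SE 0.31). Runx1 had 13.5, 49.0, 6.1, 15.3 and 32.5 normalized counts in HD mice and 13.3, 8.5, 8.5, 12.4 and 3.8 in Ctr mice. HD mouse 3 lay inside the Ctr range for Runx1, and the log2 fold change was 1.01 (SE 0.45), the least precise of the 7. With edgeR and DESeq2 on the recovered reads, the log2 fold change was 1.27 and 1.28 for Irf8 and 1.32 with both tools for Runx1, so that the order of these genes depended on the fit.

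Maf followed another order of mice. It had 378.0, 352.6, 301.0, 299.0 and 300.8 normalized counts in HD mice and 249.9, 284.1, 257.0, 313.3 and 200.8 in Ctr mice. HD mouse 1 was the highest, and Ctr mouse 4 lay above 3 of the 5 HD mice. The log2 fold change was 0.33 (SE 0.13).

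In all, 6 of the 7 genes had a log2 fold change above 0 in HD against Ctr, with a median of 0.61 against 0.01 over the 20031 genes tested. All 5 HD mice stood above all 5 Ctr mice for 2 of the 7, Csf1r and Irf8, and this was so for 0.978% of all genes tested. Over all genes, limma's moderated test called 0.130% at an adjusted p under 0.05. Since the group was chosen on this comparison, nothing is read from these shares.

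The rank of the HD mice was alike for most of the genes. HD mouse 2 was the highest of the HD mice for 5 of the 7 genes, and HD mouse 5 was among the highest 2 for 5 genes. Relative to the Ctr mean, the log2 ratio of Csf1r was 1.27 in mouse 2 and 1.11 in mouse 5, and between 0.28 and 0.73 in mice 1, 3 and 4. For Irf8 it was 2.00 and 1.57 in mice 2 and 5, and between 0.63 and 0.81 in the others. For Runx1 it ranged from -0.44 in mouse 3 to 2.37 in mouse 2.

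**Figure D2:**
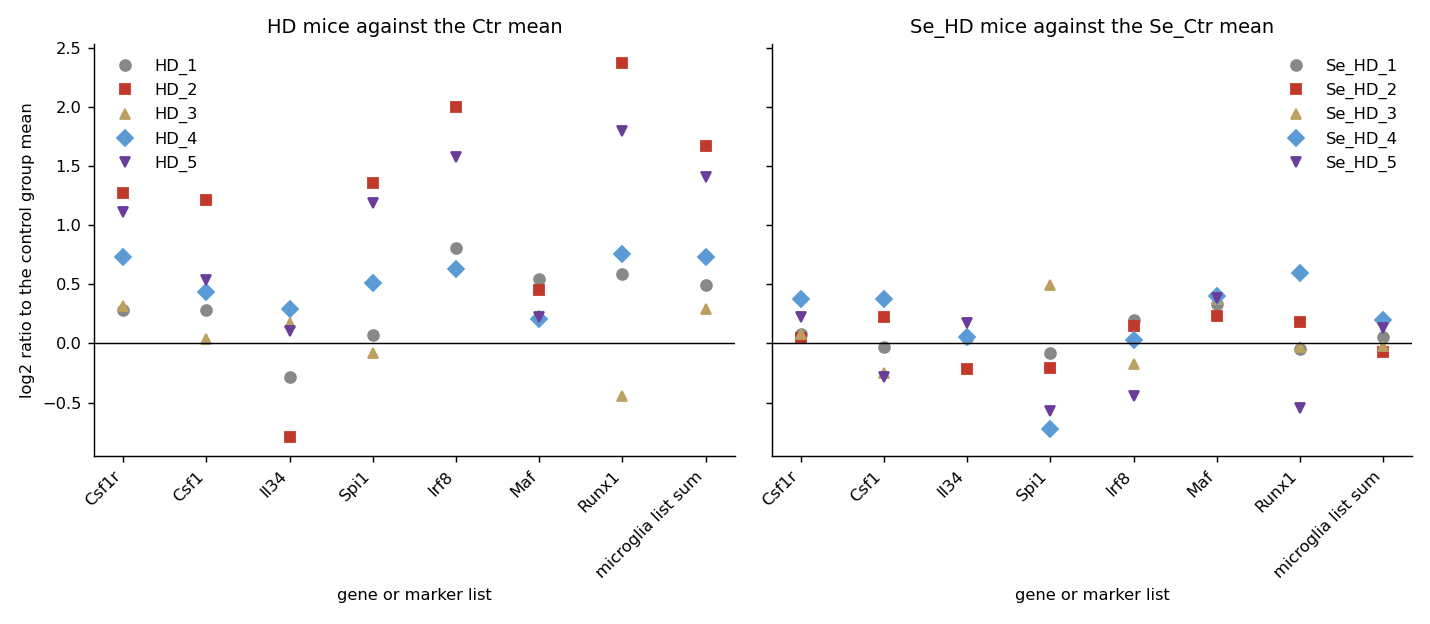
Log2 ratio of each HD mouse to the Ctr mean (left) and of each Se_HD mouse to the Se_Ctr mean (right), for the 7 genes and for the summed level of 24 microglia markers, with 1 point per mouse. HD mice 2 and 5 lie at the top for Csf1r, Spi1, Irf8, Runx1 and the microglia sum, and mouse 2 lies at the bottom for Il34 with a log2 ratio of -0.79.

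With HD mice 2 and 5 both left out, an alternative chosen after seeing the data, the log2 fold change was 0.44 in place of 0.74 for Csf1r and 0.70 in place of 1.13 for Irf8. It was 0.25 in place of 0.50 for Csf1, 0.17 in place of 0.61 for Spi1 and 0.30 in place of 1.01 for Runx1. That of Maf was 0.33 with all mice and without these, and that of Il34 turned to 0.06.

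Markers of microglia were compared in the same mice. In a bulk sample, more cells of a type and more RNA per cell cannot be told apart. The summed level of 24 microglia markers, none of which is one of the 7 genes, was between 4800 and 12506 normalized counts in HD mice and between 3803 and 4144 in Ctr mice. The HD sums were 5547, 12506, 4800, 6518 and 10406 in mice 1 to 5, so that mice 2 and 5 were again the highest, whereas Il34 was lowest in mouse 2 and Maf highest in mouse 1. The list was drawn up with earlier results of these data known, so nothing is read from the shares below. Of the 24 markers, limma's moderated test with Benjamini-Hochberg adjustment called 7 higher, against 0.125% of all genes tested. At an unadjusted p under 0.05, 22 of 24 were higher, against 5.08% of all genes, and none was lower, against 3.26%. The median log2 fold change of the 24 was 1.09. Without HD mice 2 and 5, limma called 0 of the 24 by adjusted p, against 0.0153% of all genes higher, 15 were higher at an unadjusted p under 0.05, against 3.33%, and the median was 0.51. Tyrobp, the adaptor that carries signals of Trem2 and takes part in Csf1r signalling, was at 254 ± 131 normalized counts in HD and 69.8 ± 14.3 in Ctr mice (log2 fold change 1.71, SE 0.26, adjusted p = 0.00903). The complement gene C1qb was at 449 ± 244 against 121 ± 24.4 (log2 fold change 1.71, SE 0.31, adjusted p = 0.0253). C1qa, of the same complement complex, was at 663 ± 379 against 235 ± 36.7 (log2 fold change 1.33, SE 0.24, adjusted p = 0.0268). The lysosomal gene Cd68 was at 167 ± 81.0 against 57.6 ± 9.49 (log2 fold change 1.38, SE 0.26, adjusted p = 0.0391). P2ry12, the purinergic receptor of homeostatic microglia, chosen here after its values were seen, was at 535 ± 111 against 411 ± 44.9 (log2 fold change 0.36, SE 0.14, adjusted p = 0.428).

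The genes were also set against the microglia sum. Csf1r had 17.8 ± 1.182 normalized counts for every 100 of the microglia sum in Ctr mice and 15.9 ± 2.06 in HD mice. These are ratios, since the sum does not include the 7 genes. Irf8 had 0.656 ± 0.0831 in Ctr mice and 0.778 ± 0.0984 in HD mice, Runx1 0.235 ± 0.0917 and 0.262 ± 0.0983, and Spi1 0.434 ± 0.113 and 0.348 ± 0.0265. Csf1 had 3.47 ± 0.728 in Ctr mice and 2.59 ± 0.439 in HD mice. In relative terms the means lay furthest apart for Il34 and Maf, at 4.39 ± 2.23 against 7.77 ± 0.711 for Il34 and at 4.68 ± 1.85 against 6.64 ± 1.08 for Maf. The ranges of HD and Ctr mice overlapped for each of the 7 genes on this scale. The part of the microglia markers in the differences between HD and Ctr mice was not tested.

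**Figure D3:**
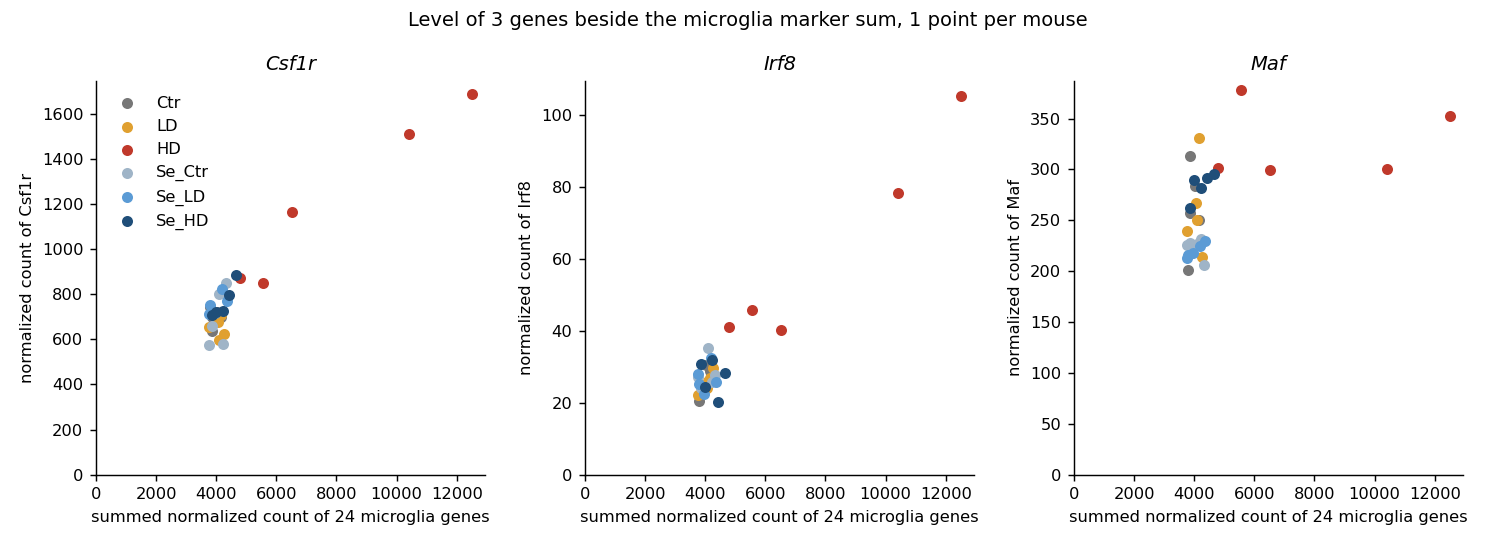
Normalized count of Csf1r, Irf8 and Maf (vertical axes) against the summed normalized count of 24 microglia markers (horizontal axes), with 1 point per mouse and all axes from 0. HD mice with a high microglia sum, up to 12506, also had high Csf1r and Irf8, while the mouse with the highest Maf, at 378, had a microglia sum of 5547.

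Markers of other cell types were compared in the same way. These lists were likewise drawn up with earlier results known, so nothing is read from the shares. Of 11 tested markers of border or blood-derived macrophages, limma called 1 higher in HD mice, the lysozyme gene Lyz2 (log2 fold change 1.93, SE 0.32, adjusted p = 0.0155), against 0.125% of all genes, and none without HD mice 2 and 5. Their sum was between 316 and 890 normalized counts in HD mice and between 202 and 347 in Ctr mice. At an unadjusted p under 0.05, 2 of the 11 were higher, against 5.08% of all genes. Without HD mice 2 and 5, 2 were higher at this threshold, against 3.33%. Neutrophil markers were near the limit of detection, with sums of at most 30.8 in any library, and limma called none of 5. Of 3 B cell markers with a row, 2 were tested and none was called, and 5 further T and B cell markers had no row. Of 10 astrocyte markers, 1 was called higher, Gfap, the intermediate filament of reactive astrocytes (log2 fold change 2.39, SE 0.35, adjusted p = 0.00716), against 0.125% of all genes. At an unadjusted p under 0.05, 5 of the 10 were higher, against 5.08% of all genes, and the median log2 fold change was 0.30. Without HD mice 2 and 5, 1 was called, against 0.0153% of all genes, and 3 were higher at the unadjusted threshold, against 3.33%. The sum of the astrocyte markers was between 61144 and 93965 normalized counts in HD mice and between 50648 and 59984 in Ctr mice. Of 10 general neuron markers and 8 hippocampal neuron markers none was called, and Gad1, which makes the transmitter of inhibitory neurons, had a log2 fold change of -0.45 (SE 0.10, adjusted p = 0.0695). None of 9 oligodendrocyte, 8 endothelium, 5 erythrocyte and 8 choroid plexus markers was called, and the choroid plexus markers had a median log2 fold change of 1.42 with sums between 9689 and 43532 in HD and between 2270 and 42549 in Ctr mice. At an unadjusted p under 0.05, 1 of the 8 was higher with all mice, against 5.08% of all genes, and 5 were higher without HD mice 2 and 5, against 3.33% of all genes in that fit, with a median of 2.10. The part of these cell types in the values of the 7 genes was not tested.

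Genes that act with the receptor and the factors were taken from lists drawn up with earlier results known, so nothing is read from their shares. Of 27 genes of Csf1r signalling, limma called 1 higher in HD mice, Tyrobp, against 0.125% of all genes, and none lower. Tyrobp is also in the microglia list, so this call is shared by both lists. At an unadjusted p under 0.05, 4 more were higher, in all 5 of 27 against 5.08% of all genes. They were Stat3, a transcription factor of cytokine signalling (log2 fold change 0.74, SE 0.21), the phosphatase gene Ptpn6 (1.03, SE 0.32), the kinase subunit gene Pik3cg (0.64, SE 0.26) and the lipid phosphatase gene Inpp5d (0.57, SE 0.25), the last named after its values were seen. The median over the 27 genes was 0.17. Without HD mice 2 and 5, limma called none of the 27 by adjusted p, and 2 were higher at an unadjusted p under 0.05, against 3.33% of all genes. None of 4 relatives of the receptor was called, and Flt3 had a log2 fold change of -0.43 (SE 0.22).

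Other colony stimulating factors and their receptors had no called gene among 5 tested. At an unadjusted p under 0.05, 3 of the 5 were higher, against 5.08% of all genes, with a median log2 fold change of 0.89, and 1 was higher without HD mice 2 and 5, against 3.33% of all genes in that fit. The receptor of granulocyte colony stimulating factor, Csf3r, was at 131 ± 47.5 normalized counts in HD and 56.7 ± 12.2 in Ctr mice (log2 fold change 1.14, SE 0.24, adjusted p = 0.0623). The shared receptor chain genes were at 30.3 ± 23.0 against 11.2 ± 5.20 for Csf2rb and at 29.0 ± 15.4 against 15.5 ± 8.63 for Csf2rb2, and neither was called. Ptprz1 and Sdc1, the further receptors described for interleukin 34, were not called. Of 19 other macrophage transcription factors none was called, and 4 were higher at an unadjusted p under 0.05, against 5.08% of all genes, namely Cebpa (0.56, SE 0.21), Irf5 (0.80, SE 0.33), Bhlhe41 (0.35, SE 0.16) and Elf1 (0.32, SE 0.14) as log2 fold changes. Without HD mice 2 and 5, 1 of the 19 was higher at this threshold, against 3.33%. Among 17 relatives of the 4 factors none was called, and Irf5 was the only one under this unadjusted threshold.

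The low dose was compared with Ctr to see whether the genes differed at lower exposure. Csf1r had 676.8, 708.3, 654.7, 624.8 and 598.6 normalized counts in LD mice, a mean of 653 ± 42.9 against 700.4 ± 39.6, and the groups overlapped. This comparison shares its Ctr mice with that of HD, on which the group was chosen, so the values of Csf1r are given without a test. Limma's moderated test called none of the other 6 genes by adjusted p, against 0% of all genes. None had an unadjusted p under 0.05, against 3.01% of all genes. These 6 genes were also proposed with HD against Ctr in view. Their tests share the Ctr mice and are not independent of that choice, so nothing further is read from them. EdgeR and DESeq2 on the recovered reads also called no gene of the table in LD against Ctr. The lowest unadjusted p, 0.394, was that of Csf1, with a log2 fold change of -0.16 and a 95% confidence interval from -0.53 to 0.22. For Csf1r the log2 fold change was -0.10 (SE 0.15). The interval was from -0.52 to 0.53 for Irf8 and from -0.73 to 1.16 for Runx1. It was from -0.60 to 0.69 for Spi1, from -0.26 to 0.41 for Il34 and from -0.28 to 0.27 for Maf. The fit used a single spread per gene over Ctr, LD and HD mice, so the spread of the HD mice entered these intervals. For Irf8 the coefficient of variation was 46.4% in HD, 15.5% in Ctr and 11.0% in LD mice.

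In mice given selenium, the same genes were measured in separate animals. Csf1r had 724.2, 706.4, 722.5, 884.4 and 795.9 normalized counts in Se_HD mice and 800.5, 657.9, 580.2, 849.5 and 574.2 in Se_Ctr mice. The groups overlapped, and the highest Se_HD mouse, at 884.4, stood above the 2 lowest HD mice, at 848.7 and 873.3. The log2 fold change was 0.16, with a 95% confidence interval from -0.04 to 0.37 (limma adjusted p = 1.00, two-sided exact permutation p = 0.238). It had the lowest unadjusted limma p of the 6 tested genes, 0.118. Irf8 had 32.0, 30.9, 24.6, 28.5 and 20.2 normalized counts in Se_HD mice and 35.1, 24.2, 25.8, 27.8 and 27.3 in Se_Ctr mice, a log2 fold change of -0.05 with an interval from -0.43 to 0.33. The highest Se_HD value of Irf8 lay below the lowest HD value of 40.2.

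The other tested genes also overlapped between Se_HD and Se_Ctr mice. Csf1 ranged from 117.9 to 186.7 normalized counts in Se_HD mice and from 128.2 to 177.4 in Se_Ctr mice, with a log2 fold change of 0.01 (interval from -0.25 to 0.27). Il34 ranged from 276.0 to 361.5 and from 302.9 to 355.1, with a log2 fold change of 0.02 (interval from -0.17 to 0.22). Spi1 ranged from 8.0 to 19.8 and from 9.5 to 18.2, with a log2 fold change of -0.22 (interval from -0.77 to 0.34). Runx1 ranged from 5.6 to 13.7 and from 4.1 to 11.7, with a log2 fold change of 0.03 (interval from -0.75 to 0.82). Limma called none of these 6 genes by adjusted p, against 0% of all genes, and none at an unadjusted p under 0.05, against 4.19% of all genes. Over all genes, edgeR called 0 and DESeq2 called 4 in this comparison. The microglia sum was between 3852 and 4654 in Se_HD mice and between 3755 and 4341 in Se_Ctr mice, and 0 of its 24 markers had an unadjusted p under 0.05. No marker of another cell type was called in Se_HD mice. Of 10 astrocyte markers, 3 were higher at an unadjusted p under 0.05, against 2.43% of all genes, among them Gfap with a log2 fold change of 0.51. Of 11 markers of border or blood-derived macrophages, 2 were higher at this threshold, Lyz2 (log2 fold change 0.78) and the chemokine receptor gene Ccr2 (1.28), the latter named after its values were seen. The sum of this list was between 219 and 480 in Se_HD and between 192 and 272 in Se_Ctr mice, and all 8 choroid plexus markers had log2 fold changes above 0, with a median of 0.69, none at an unadjusted p under 0.05, and sums between 13928 and 51877 in Se_HD and between 10479 and 29862 in Se_Ctr mice. The part of these lists in the values of the 7 genes was not tested.

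Maf, which is not tested here because it was named from this comparison, had 281.3, 262.4, 289.9, 295.9 and 291.9 normalized counts in Se_HD mice and 227.0, 227.4, 232.1, 206.1 and 225.9 in Se_Ctr mice. All 5 Se_HD mice were above all 5 Se_Ctr mice, which was so for 0.478% of all genes tested, and nothing is read from this share. The log2 fold change was 0.34 (SE 0.07), beside 0.33 (SE 0.13) in HD against Ctr. The Se_HD values lay within the Ctr range of 200.8 to 313.3, and the Se_Ctr values, with a mean of 224 ± 10.1, lay in its lower part.

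**Figure D4:**
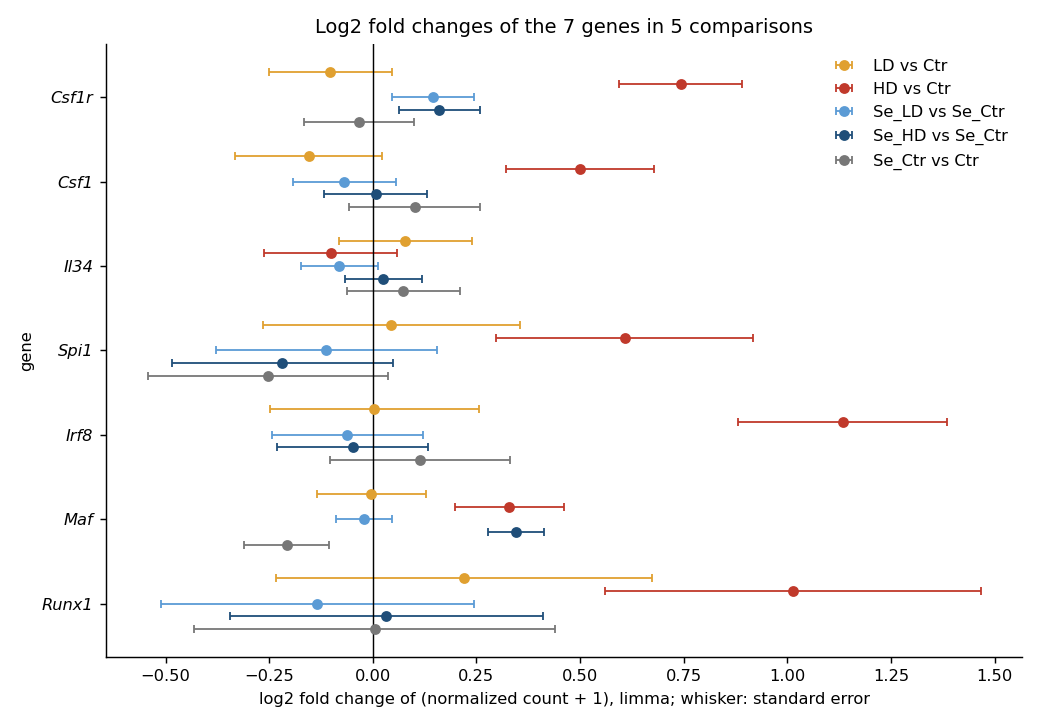
Log2 fold changes of the 7 genes (limma, horizontal axis, with the standard error as a whisker) in 5 comparisons marked by color, with 5 mice in each group. HD against Ctr lies farthest to the right for Csf1r, Csf1, Spi1, Irf8 and Runx1, whereas for Maf HD against Ctr at 0.33 and Se_HD against Se_Ctr at 0.34 lie side by side.

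The difference between these high dose effects, selenium minus no selenium, is given as a description, as it uses the HD mice. It was -0.58 (SE 0.19) for Csf1r, -0.49 (SE 0.22) for Csf1 and 0.13 (SE 0.19) for Il34 on the log2 scale. It was -1.18 (SE 0.31) for Irf8, -0.83 (SE 0.41) for Spi1, -0.98 (SE 0.62) for Runx1 and 0.02 (SE 0.15) for Maf. Without HD mice 2 and 5 it was -0.28 for Csf1r, -0.24 for Csf1, -0.75 for Irf8, -0.38 for Spi1, -0.27 for Runx1, -0.03 for Il34 and 0.02 for Maf. Over marker lists the median of this difference was -0.99 for microglia, -0.71 for choroid plexus and -0.22 for astrocytes. It was 0.18 for oligodendrocytes and 0.54 for erythrocytes, against -0.01 over all genes. The part of these lists in the differences of the 7 genes was not tested. Mercury levels of these mice were not analysed here.

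The low dose with selenium and selenium alone were also tested. Csf1r ranged from 713.9 to 824.7 normalized counts in Se_LD mice, and Maf ranged from 213.0 to 229.6, inside or close to the Se_Ctr values. Maf was named from values that include the Se_Ctr mice, so its values against them are given without a test. Limma called none of the other 6 genes in Se_LD against Se_Ctr by adjusted p, against 0% of all genes, and none at an unadjusted p under 0.05, against 3.31%. The lowest unadjusted p was that of Csf1r, at 0.157, with a log2 fold change of 0.14 (interval from -0.06 to 0.35). The Ctr mice were part of the values that chose Csf1r, so its values against them are likewise given without a test. For Se_Ctr against Ctr, none of the 5 genes other than Csf1r and Maf was called by adjusted p, against 0% of all genes, and none at an unadjusted p under 0.05, against 4.00%. The lowest unadjusted p there was that of Spi1, at 0.388, with a log2 fold change of -0.25 (interval from -0.84 to 0.34). For Maf the log2 fold change was -0.21 (SE 0.10) in Se_Ctr against Ctr and -0.02 (SE 0.07) in Se_LD against Se_Ctr. The low dose effect did not pass the test of a difference between the diets for any of these 5 genes by adjusted p, against 0%, or at an unadjusted p under 0.05, against 3.75%. The lowest p of the 5 was 0.414, for Il34, with a difference of -0.16 (interval from -0.55 to 0.23), and the difference for Csf1r was 0.25 (SE 0.19). EdgeR and DESeq2 called no gene of the table in these 3 comparisons. Se_Ctr against Ctr and the low dose difference use the Ctr mice that were in view when the genes were proposed. Through the fit they also use the spread of the HD mice. These tests are not independent of that choice, and nothing further is read from them.

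Whether the other genes followed Csf1r from mouse to mouse within a group was examined after group means were removed. The values are a description with no test, since the Ctr mice and, over all 30 mice, the HD mice were part of the values that chose the group. Pearson's r with Csf1r was 0.62 for Irf8 (Spearman rho 0.43), 0.57 for Runx1 (0.44), 0.56 for Csf1 (0.28), 0.26 for Spi1 (-0.05), -0.25 for Il34 (0.03) and -0.05 for Maf (0.05). Without HD mice 1 and 2, the mice farthest from the median of Csf1r once group means were removed, r was 0.44 for Irf8, 0.47 for Runx1 and 0.37 for Csf1. With the means of the sets of 6 consecutive library numbers also removed, r was 0.63 for Irf8, 0.58 for Runx1 and 0.67 for Csf1 over the 30 mice. In the 20 mice outside HD and Se_HD, r was 0.30 for Irf8 (rho 0.28), 0.21 for Runx1 (0.22), 0.15 for Csf1 (-0.02), -0.07 for Il34 (-0.01), -0.08 for Maf (0.0) and -0.39 for Spi1 (-0.49).

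The genes with the most similar pattern over the 30 libraries were searched, as a description, among the 11089 genes that averaged 50 normalized counts or more. For Csf1r they were the lysosomal membrane gene Laptm5 (r = 0.94), the urea transporter gene Slc14a1 (0.93), Gfap (0.92), 2310014H01Rik (0.91) and the complement gene C4b (0.91). For Irf8 they were Olfml3 (0.92), Lcp1 (0.91) and Mpeg1 (0.91), and for Csf1 they were Olfml3 (0.85), Gpam (0.85) and Lcp1 (0.83). For Runx1 they were Cx3cr1 (0.80), the microglial fractalkine receptor, Itgam (0.79) and Cd53 (0.75), and for Spi1 they were the metallothionein gene Mt1 (0.82), Unc93b1 (0.75) and Ctsz (0.73). Il34 was nearest to Mapre3 (0.80), Rtn1 (0.79) and the thyroid hormone receptor gene Thra (0.79), and Maf to Bcl2 (0.76), Bach1 (0.75) and Marcks (0.74). These libraries share the groups, so such values mix differences between groups with those within them.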

How the data were processed

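Hippocampus RNA of 30 mice, 5 per group, was sequenced by the authors as stranded, single-end libraries of 75 bases. Per the labels and the study's methods, reads were trimmed with Trim Galore 0.4.2, mapped with HISAT2 to NCBIM37, counted with featureCounts and normalized with DESeq2. The deposited signal values are reads divided by a size factor, for genes with a row sum of at least 10. Reads were recovered, and 100% of values were whole within 0.001 reads. The reads on genes were between 5768208 and 11510521 per library, and 3 of the 7 genes rest on few of them.

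The log2 of each deposited signal value plus 1 was fitted with limma 3.58.1 (R 4.3.3) with a variance trend, over Ctr, LD and HD (20031 genes with a sum of at least 10), over the selenium groups (19679) or over all libraries (21383). A gene was called at a Benjamini-Hochberg adjusted p under 0.05 over all genes tested. Other settings tried were 0.1 or 10 as pseudocount, genes that averaged 10 or more, no filter on low values, edgeR 4.0.16 and DESeq2 1.42.0 on recovered reads, sets of 6 consecutive library numbers as a covariate, all 30 libraries in 1 fit, and each mouse left out in turn. Correlations with Csf1r are given as a description, since every set of mice held some that chose the genes. A permutation test of them (100000 permutations of mice within groups) was run but is not used as a result, and the closing section gives its counts. The methods were tested on simulated data.

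The 7 genes and all lists were chosen with earlier results of these data known. The text names all 7 genes, the 5 or 3 genes most like each in pattern, and from each list up to 4 genes with the lowest limma p in HD against Ctr, plus P2ry12, Inpp5d and Ccr2, which were chosen after their values were seen. The ratio to the microglia sum and the promoter search were added after seeing the data. Groups came from the labels. Mouse numbers 1 to 5 within a group follow the accession order and do not pair mice. Exon lengths, positions and symbols came from the NCBIM37 gene annotation, whose exon models may differ from those the authors counted on. Tables were handled with Python 3.11.15, pandas 2.3.3, numpy 2.4.6 and scipy 1.17.1, and figures were drawn with matplotlib 3.10.9.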

Additional observations from a re-analysis of the deposited data

Results flagged for a closer look

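In 2 of 42 sets of 5 mice (7 genes in 6 groups), 1 mouse lay far from the other 4 by Dixon's test, and chance alone gives about 1 in 20. Spi1 in LD mouse 4 was at 28.7 normalized counts, with the other LD mice between 12.9 and 17.0, and its gap took 0.737 of the range. Maf in Se_Ctr mouse 4 was at 206.1, with the other Se_Ctr mice between 225.9 and 232.1, and its gap took 0.761 of the range.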

How the results depend on the processing

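The genes tested stayed uncalled in each comparison under every alternative run, and Csf1r and Irf8 stayed higher in HD than in Ctr mice in each. Over all genes, limma called 26 in HD against Ctr. That count was 17 and 11 with pseudocounts of 0.1 and 10, 21 over genes that averaged 10 or more and also without a filter, 45 with edgeR, 196 with DESeq2, 27 with library sets, 200 with all 30 libraries, and 3 without HD mice 2 and 5. In Se_HD against Se_Ctr, DESeq2 called 4 and the fit with library sets 1, and DESeq2 called 12 genes for the high dose effect between diets. A pseudocount of 0.1 called 1 gene in Se_Ctr against Ctr. With each mouse left out in turn, HD against Ctr had 16, 12, 11, 3 and 15 called genes without Ctr mice 1 to 5 and 57, 14, 76, 12 and 4 without HD mice 1 to 5. For the high dose effect between diets, limma called 0 genes with all mice, 9 without HD mouse 1, 21 without HD mouse 3 and 2 without Ctr mouse 2, and in Se_HD against Se_Ctr 2 without Se_Ctr mouse 4.

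Fold changes that changed sign were smaller than their SE. Depth limits Runx1 most, with as few as 3 reads in a library. Without HD mice 2 and 5, the log2 fold change of Il34 was 0.059 in HD against Ctr and its difference between the diets -0.034. Irf8 in LD was at -0.000982 with DESeq2. Runx1 in Se_LD was at 0.074 with edgeR and 0.058 with DESeq2, and in Se_Ctr against Ctr at -0.0048 with a pseudocount of 10, -0.045 with edgeR and -0.046 with DESeq2. The r of Csf1r with Spi1 was -0.39 without HD and Se_HD mice and -0.018 without the 2 mice farthest from the median of Csf1r. Over all 30 mice, which include those on which the group was chosen, 0 of the 6 correlations had an adjusted permutation p under 0.05, against 2 with a pseudocount of 10 and 3 with library set means removed and 0 without HD and Se_HD mice, and nothing is read from these counts. The cause of these changes was not tested.

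Leaving out each mouse in turn, Csf1r in HD against Ctr ranged from 0.61 to 0.86 and its difference between the diets from -0.70 to -0.45. Some values changed sign. In HD against Ctr, Il34 ranged from -0.20 to 0.071. In LD against Ctr, Irf8 ranged from -0.075 to 0.065, Maf from -0.095 to 0.065, Spi1 from -0.13 to 0.17 and Runx1 from -0.030 to 0.39. In Se_HD against Se_Ctr, Csf1 ranged from -0.084 to 0.083, Il34 from -0.012 to 0.085, Irf8 from -0.11 to 0.050 and Runx1 from -0.20 to 0.18. In Se_LD against Se_Ctr, Csf1 ranged from -0.11 to 0.0068, Irf8 from -0.13 to 0.020 and Runx1 from -0.45 to 0.074. In Se_Ctr against Ctr, Csf1r ranged from -0.11 to 0.029 and Runx1 from -0.25 to 0.23. For the high dose effect between diets, Il34 ranged from -0.046 to 0.22 and Maf from -0.054 to 0.11. For the low dose effect between diets, Csf1 ranged from -0.013 to 0.17, Irf8 from -0.14 to 0.016, Maf from -0.087 to 0.072 and Spi1 from -0.28 to 0.019. The mouse numbers follow the accession order and pair no mice. The sets of 6 consecutive library numbers each held 1 mouse of every group, and with them as a covariate no call on a fold change of the genes tested changed.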
